A study of Mus musculus with 13 samples.

Results

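Tight junctions are the seals between neighbouring endothelial cells of the brain capillaries, and they close the route between the cells at the blood-brain barrier (BBB). Messenger RNA for 9 tight junction genes was followed in brain vasculature isolated from mice under systemic inflammation, and the genes were found among the 47643 of the count table by their Ensembl identifiers. They comprise the claudins *Cldn5* and *Cldn12*, the MARVEL-domain proteins *Ocln* (occludin) and *Marveld2* (tricellulin), the tricellular junction receptor *Lsr* (angulin-1), the junctional adhesion molecules *Jam2* (JAM-B) and *F11r* (JAM-A), and the cytoplasmic proteins *Tjp1* (ZO-1) and *Cgn* (cingulin). All 9 passed the filter on low counts. All 13 mice were male CD1 mice of 8 to 10 weeks and formed 3 groups, of which LPS-vehicle held 5 mice and both sham-vehicle and LPS-CPD-4645 held 4. Both LPS groups received lipopolysaccharide of Salmonella, an endotoxin that sets off systemic inflammation, at 3 mg/kg into the peritoneum at 0, 6 and 24 h. LPS-CPD-4645 mice also received CPD-4645, an inhibitor of the 2-arachidonoylglycerol-degrading enzyme monoacylglycerol lipase, at 10 mg/kg under the skin, which by the labels was given 30 min after each LPS dose, although the study's text also gives a longer delay. Tissue was taken at 28 h. No group received CPD-4645 without LPS, so the action of the compound on these genes in uninflamed tissue was not measured.

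At a tight junction, claudins form the paracellular seal, occludin joins them in the strands, and tricellulin with angulin-1 closes the points where 3 cells meet. Junctional adhesion molecules are immunoglobulin-type receptors that hold the membranes together and take part in leukocyte passage, and JAM-A is also carried by leukocytes and platelets themselves. ZO-1 and cingulin lie under the membrane and link the strands to actin. Claudin-5 is the main claudin of brain endothelium.

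Total counts per library ran from 7813559 to 55133373, and mitochondrial genes took 6.47 to 12.7% of a library in sham-vehicle, 4.84 to 7.05% in LPS-vehicle and 3.97 to 8.17% in LPS-CPD-4645 mice. The highest share, 12.7%, was that of sham-vehicle mouse 4. The label of isolated neurovasculature was compared with cell type markers. The 16 endothelial markers were present in every library, yet their summed level per kilobase of exon was 90.5 to 189 counts per 1000000 library counts (CPM) over all mice, against 2970 to 4085 for 9 neuronal markers and 901 to 1908 for 8 oligodendrocyte markers. The neuronal and oligodendrocyte sums thus exceeded the endothelial one in every library. The lists hold unlike genes and no whole-brain library was included, so these sums do not measure enrichment. By RT-qPCR, the study reported enriched *Gfap*, *Pdgfrb* and *Pecam1* and low *Syp* and *Aif1* in its preparation. In such bulk tissue, fewer cells of a type and less RNA per cell cannot be told apart. Of the endothelial markers, 5 rose and 2 fell in LPS-vehicle mice relative to sham-vehicle mice, beside 11.1% and 8.86% of all genes tested. In LPS-CPD-4645 mice relative to LPS-vehicle mice, 6 fell and none rose, beside 16.4% and 14.1% of all genes. These calls are from edgeR, with p adjusted by Benjamini-Hochberg and 0.05 as the limit. Results for the junction genes are therefore given both on the library scale and relative to these endothelial markers.

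In GRCm38 coordinates with GENCODE M21 names, *Cldn5* (ENSMUSG00000041378) is a gene of 1 exon at chr16:18776847-18778262 on the plus strand. *Cldn12* (ENSMUSG00000046798) lies at chr5:5489537-5514958, *Tjp1* (ENSMUSG00000030516) at chr7:65296165-65527781 and *Cgn* (ENSMUSG00000068876) at chr3:94760069-94786492, each on the minus strand. *Jam2* (ENSMUSG00000053062) lies at chr16:84774123-84825928 and *F11r* (ENSMUSG00000038235) at chr1:171437535-171464603, both on the plus strand. The MARVEL-domain genes are neighbours on the minus strand of chromosome 13, with *Ocln* (ENSMUSG00000021638) at chr13:100496507-100552718 and *Marveld2* (ENSMUSG00000021636) at chr13:100595957-100616971, 43238 bases apart. *Lsr* (ENSMUSG00000001247) at chr7:30957770-30973464, minus strand, shares exonic positions with the antisense genes *Gm17077* and *Gm4673*. These antisense genes held 7 and 565 counts over all mice against 4351 for *Lsr*, and the strand setting of the counting is not stated in the sources used here, so the *Lsr* counts carry that uncertainty.

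Windows of 250 bases before the RefSeq gene start (GRCm38.p6) were found for 8 of the 9 genes, *Jam2* being the other. That of *Tjp1* lies wholly inside the GENCODE gene, 156537 bases from its GENCODE start. The sequences of 3 of them are shown, namely those of *F11r* and *Cldn5*, which rose after LPS, and that of *Lsr*, which shares a motif with *F11r*. Capitals mark the AP-1 letters TGANTCA and the CCAAT box letters CCAAT, searched on both strands. The *F11r* window is printed as its first 224 bases, chr1:171437311-171437534 on the plus strand, because its last 26 bases lie inside the GENCODE gene. The *Cldn5* window is chr16:18776597-18776846 on the plus strand and the *Lsr* window is chr7:30973470-30973719 on the minus strand.
F11r: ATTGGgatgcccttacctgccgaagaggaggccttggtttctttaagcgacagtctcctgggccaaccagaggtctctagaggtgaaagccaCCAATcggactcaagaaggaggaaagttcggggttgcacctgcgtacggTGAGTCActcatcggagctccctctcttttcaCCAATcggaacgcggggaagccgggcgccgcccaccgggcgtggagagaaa
Cldn5: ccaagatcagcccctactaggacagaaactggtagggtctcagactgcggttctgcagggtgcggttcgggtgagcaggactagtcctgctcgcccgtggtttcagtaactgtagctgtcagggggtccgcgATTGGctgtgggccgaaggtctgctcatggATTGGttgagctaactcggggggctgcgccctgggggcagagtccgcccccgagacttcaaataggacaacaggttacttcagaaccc
Lsr: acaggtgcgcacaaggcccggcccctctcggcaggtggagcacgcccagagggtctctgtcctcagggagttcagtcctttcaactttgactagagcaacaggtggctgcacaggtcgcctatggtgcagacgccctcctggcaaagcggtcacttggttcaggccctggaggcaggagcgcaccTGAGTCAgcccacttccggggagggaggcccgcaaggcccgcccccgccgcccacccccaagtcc

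The AP-1 letters were found in the windows of 2 of the 8 genes, *F11r* and *Lsr*, and both carried TGAGTCA. They stood 109 to 103 bases before the RefSeq start of *F11r* and 65 to 59 bases before that of *Lsr*. Of 32536 distinct mouse windows of the same length, 6.73% held these letters. The CCAAT letters occurred in 3 of the 8 windows (*F11r*, *Cldn5* and *Cgn*) and in 33.8% of all windows. In all, 9 motifs were searched. The GC box letters GGGCGG occurred in 7 of the 8 windows, every one but that of *Cldn12*, and in 33% of all windows. The GC content of the 8 windows ran from 42.0% to 70.4%. The ETS letters CCGGAA were found in 3 windows (*Cldn12*, *Lsr* and *Ocln*) and in 12.1% of all. The E-box letters CACGTG were found in that of *Cgn* (6.04% of all) and the TATA box letters TATAAA in that of *Marveld2* (12.3%). The SOX letters ATTGT were in 0 of the 8 (27.4% of all), as was an interferon-stimulated response element (2.98%). A nuclear factor kappa B motif of 10 letters occurred in 0 of the 8 windows and in 1.21% of all windows. These are matches of letters and no evidence of binding.

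The genes spanned a wide range of expression. Per kilobase of exon, *Cldn5* was highest in sham-vehicle mice at 75.9 ± 14.7 CPM (SD, n = 4), followed by *Cldn12* at 13.5 ± 1.39, *Tjp1* at 7.79 ± 0.274 and *Jam2* at 5.62 ± 0.227. *F11r* at 3.99 ± 0.420 and *Lsr* at 3.90 ± 1.06 CPM per kilobase did not differ beyond their spread, and the *Lsr* range also overlapped that of *Ocln* at 2.84 ± 0.366. *Cgn* at 0.880 ± 0.0864 and *Marveld2* at 0.699 ± 0.120 were lowest. *Cldn5* and *Cldn12* held the first places in all 3 groups, with ranges that did not overlap those of their neighbours. *F11r* went from rank 5 in sham-vehicle mice to rank 3 in LPS-vehicle mice at 8.69 ± 0.516 CPM per kilobase (n = 5), where its range overlapped that of *Tjp1*, and back to rank 5 in LPS-CPD-4645 mice at 5.46 ± 0.631 (n = 4).

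**Figure D1:**
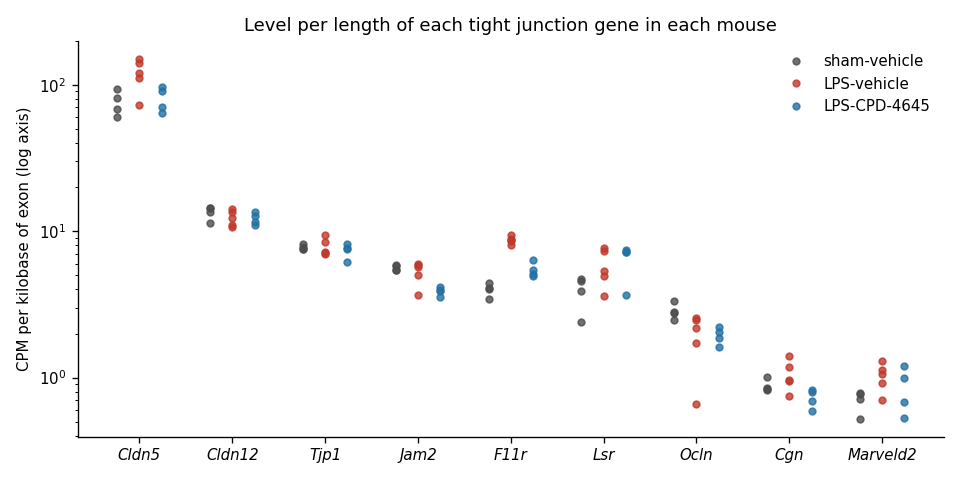
Level of each tight junction gene in each mouse, as CPM per kilobase of exon on a log axis, with genes ordered by their sham-vehicle mean and 1 point per mouse. *Cldn5* lies between 59.8 and 151 in every mouse, above all other members, and the *F11r* points of LPS-vehicle mice (8.01 to 9.45) stand above those of sham-vehicle mice (3.43 to 4.45).

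The effect of LPS on the junction genes was examined first, by comparing LPS-vehicle with sham-vehicle mice. The JAM-A gene *F11r* and the claudin gene *Cldn5* rose, *F11r* by 2.18-fold and *Cldn5* by 1.58-fold, and no member fell. Thus 2 of the 9 genes passed an adjusted p of at most 0.05, both upward, where 19.9% of the 17285 tested genes passed in either direction, 11.1% upward and 8.86% downward. A further criterion of at least 2-fold change, as the study used, was met by *F11r* alone and by 5.68% of all genes. The median log2 fold change of the 9 genes was 0.23, beside -0.00065 for all genes.

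*F11r* measured 11.2, 8.65, 10.1 and 10.3 CPM in the 4 sham-vehicle mice and 21.8, 23.8, 21.6, 20.2 and 22.1 CPM in the 5 LPS-vehicle mice. The lowest LPS-vehicle mouse lay well above the highest sham-vehicle mouse, and *F11r* was the only member whose groups did not overlap in this comparison, against 18.1% of all genes, 9.68% upward. Its log2 fold change was 1.12 ± 0.12 (SE; 95% interval 0.87 to 1.37; edgeR quasi-likelihood test, Benjamini-Hochberg adjusted p = 2.5e-06).

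*Cldn5* measured 132, 115, 97.2 and 84.7 CPM in sham-vehicle mice and 170, 214, 103, 158 and 201 CPM in LPS-vehicle mice. All LPS-vehicle mice but one exceeded every sham-vehicle mouse, and mouse 3, the shallowest library, fell inside the sham-vehicle range. Its log2 fold change was 0.66 ± 0.18 (95% interval 0.29 to 1.03; edgeR adjusted p = 0.0135), and without sham-vehicle mouse 4, the library with 12.7% mitochondrial counts, the adjusted p was 0.0561.

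*Ocln* gave the lowest fold change of the 9 genes but did not pass. Occludin transcript measured 14.1, 11.9, 11.6 and 10.4 CPM in sham-vehicle mice and 10.5, 7.32, 2.77, 10.8 and 9.21 CPM in LPS-vehicle mice. The groups overlapped, and the lowest value, from LPS-vehicle mouse 3, rested on 22 counts (exact Poisson 95% interval 1.74 to 4.198 CPM, counting error only). The log2 fold change was -0.53 ± 0.24 (95% interval -1.04 to -0.02; edgeR adjusted p = 0.139), and -0.35 without that mouse.

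The tricellular junction genes had similar fold changes that did not pass the test. *Lsr* measured 9.95, 8.49, 10.2 and 5.23 CPM in sham-vehicle mice and 11.7, 10.8, 7.81, 15.9 and 16.8 CPM in LPS-vehicle mice, so 4 of the 5 LPS-vehicle mice lay above all sham-vehicle mice. Its log2 fold change was 0.58 ± 0.25 (edgeR adjusted p = 0.108). *Marveld2*, whose product *Lsr* protein recruits to the corners between cells, ranged from 1.78 to 2.67 CPM in sham-vehicle mice and from 2.39 to 4.41 CPM in LPS-vehicle mice, for a log2 fold change of 0.56 ± 0.27 (edgeR adjusted p = 0.153). Relative to the endothelial markers, the log2 fold changes of *Lsr* and *Marveld2* were smaller, at 0.19 and 0.16 (edgeR adjusted p = 0.538 and 0.705).

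The remaining genes gave values near 0. The log2 fold change of *Jam2* was -0.09 (95% interval -0.34 to 0.15), that of *Cldn12* was -0.12 (-0.33 to 0.10) and that of the scaffold gene *Tjp1* was 0.01 (-0.20 to 0.23). For these 3 genes the intervals on the library scale leave out a change of 1.5-fold in either direction, which is a statement on size and not on absence. Relative to the endothelial markers, *Cldn12* and *Jam2* were at -0.51 and -0.52 and did not pass (edgeR adjusted p = 0.078 and 0.057). The statement is therefore limited to the library scale. *Cgn* had a log2 fold change of 0.23 (-0.17 to 0.64), and its range of 4.53–8.44 CPM in LPS-vehicle mice took in the sham-vehicle range of 4.96–6.07 CPM.

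**Figure D2:**
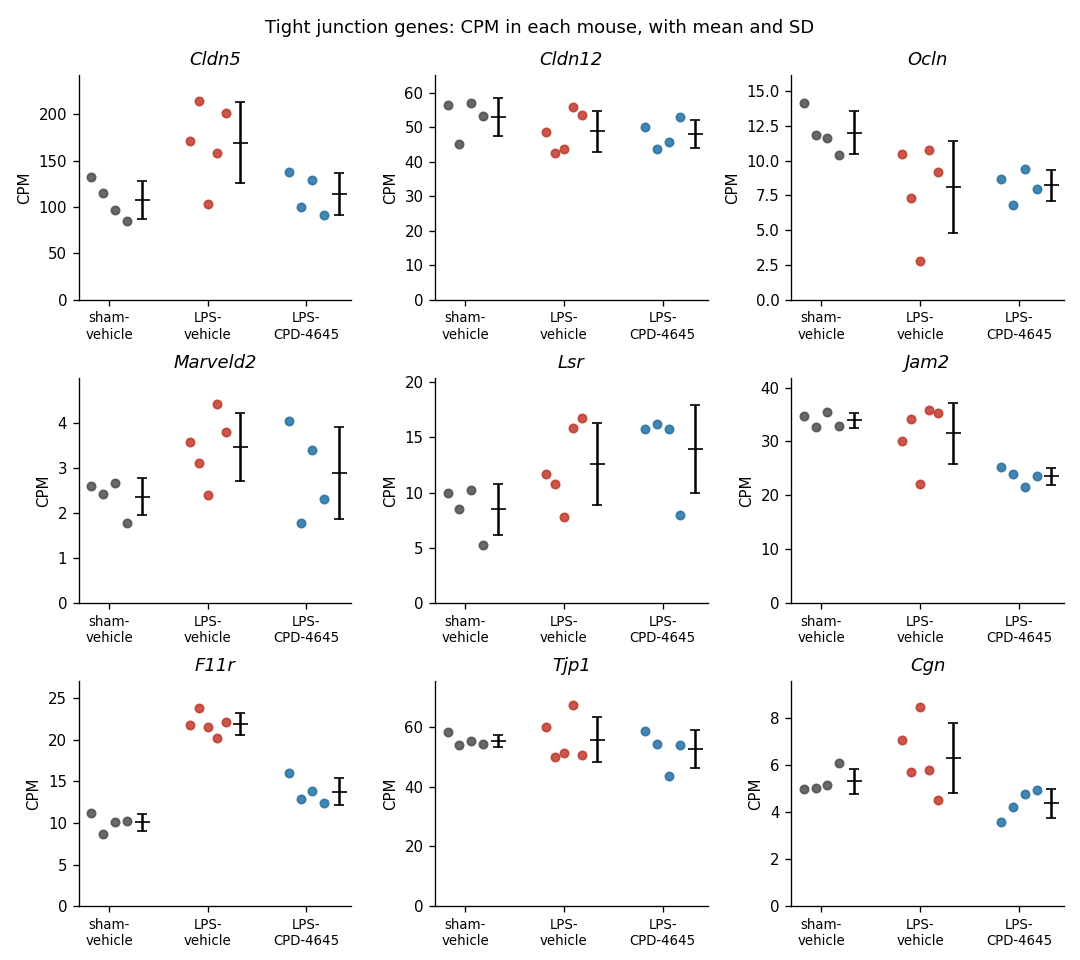
CPM of the 9 tight junction genes, 1 panel per gene and 1 point per mouse, with the mean and SD of each group as a bar at its right; each vertical axis starts at 0. *F11r* separates LPS-vehicle mice (20.2 to 23.8 CPM) from both other groups, and *Jam2* in LPS-CPD-4645 mice (21.5 to 25.3 CPM) lies below all sham-vehicle mice (32.6 to 35.4 CPM).

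Whether CPD-4645 altered these levels under LPS was examined in LPS-CPD-4645 against LPS-vehicle mice. *F11r*, *Cldn5* and *Jam2* fell, to 0.626, 0.671 and 0.740 times the LPS-vehicle level, and no member rose. These 3 of 9 genes compare with 30.5% of all tested genes passing in either direction and 16.4% passing downward. No member changed by 2-fold or more, as 5.9% of all genes did. The median log2 fold change of the 9 genes was -0.30, beside -0.02 for all genes. Both this comparison and the preceding one use the LPS-vehicle libraries, so a gene that is high in those libraries moves up in one and down in the other.

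*F11r* measured 15.97, 12.9, 13.8 and 12.4 CPM in the 4 LPS-CPD-4645 mice. Every one of these lay below the lowest LPS-vehicle mouse, which made *F11r* the only member without overlap here, against 23% of all genes, 12% downward. It fell by 0.68 ± 0.12 on the log2 scale (95% interval -0.93 to -0.43; edgeR adjusted p = 0.00044).

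*Cldn5* measured 137, 99.5, 129 and 90.8 CPM in LPS-CPD-4645 mice, values that overlapped the sham-vehicle range and the lowest LPS-vehicle mouse. Its log2 fold change was -0.57 ± 0.18 (95% interval -0.95 to -0.20; edgeR adjusted p = 0.0205). The call was lost without LPS-vehicle mouse 2 (adjusted p = 0.0513), without LPS-CPD-4645 mouse 2 (0.0704) and without LPS-CPD-4645 mouse 4 (0.0827) in edgeR.

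*Jam2* had not passed the test after LPS on the library scale. It measured 34.8, 32.6, 35.4 and 32.9 CPM in sham-vehicle mice, 30.1, 34.2, 22.2, 35.8 and 35.3 CPM in LPS-vehicle mice, and 25.3, 23.9, 21.5 and 23.5 CPM in LPS-CPD-4645 mice. The LPS-CPD-4645 values were tightly grouped, and only the shallow LPS-vehicle mouse 3 reached down into them. The log2 fold change against LPS-vehicle was -0.43 ± 0.12 (95% interval -0.68 to -0.19; edgeR adjusted p = 0.00998).

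*Cgn* was the nearest member that did not pass, with 3.56, 4.197, 4.78 and 4.94 CPM in LPS-CPD-4645 mice and a log2 fold change of -0.50 ± 0.20 (edgeR adjusted p = 0.0614). These values overlapped the lowest LPS-vehicle mouse, at 4.53 CPM, and without that mouse the edgeR adjusted p was 0.0285. *Ocln* had a log2 fold change of -0.02, with a wide 95% interval of -0.54 to 0.50. *Lsr* had a log2 fold change of 0.13 (95% interval -0.38 to 0.63), *Marveld2* of -0.30 (-0.86 to 0.26), *Tjp1* of -0.09 (-0.30 to 0.13) and *Cldn12* of -0.03 (-0.24 to 0.19).

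**Figure D3:**
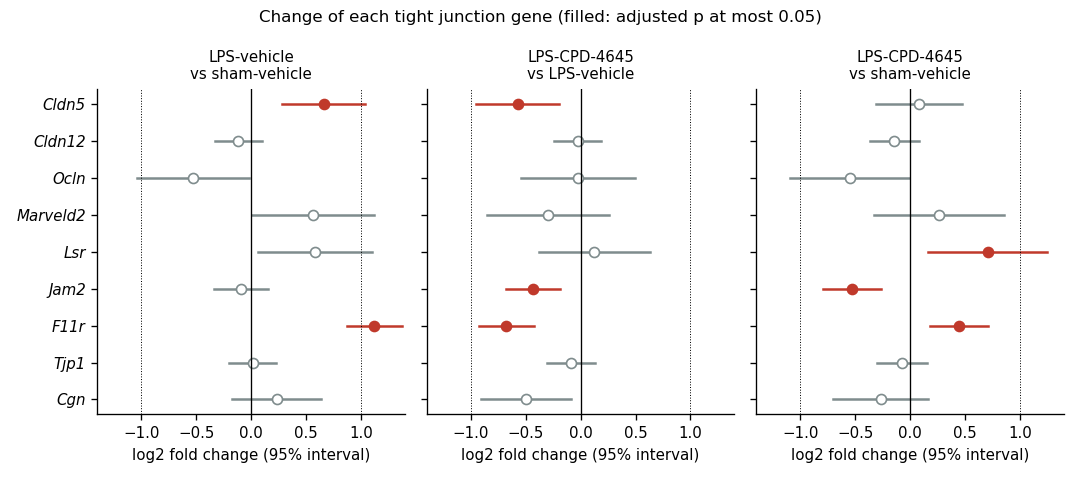
Log2 fold change of each tight junction gene with its 95% interval in the 3 comparisons; filled red points have an edgeR adjusted p of at most 0.05 and dotted lines mark a 2-fold change. *F11r* is filled in all 3 panels at 1.12, -0.68 and 0.45, while *Tjp1* and *Cldn12* are open and near 0 in each.

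LPS-CPD-4645 mice were then set against sham-vehicle mice. *F11r* and *Lsr* were higher and *Jam2* was lower, by 1.36-fold, 1.63-fold and to 0.693 times the sham-vehicle level. These 3 of 9 genes stand beside 38.8% of all tested genes, 19.5% upward and 19.3% downward. Groups did not overlap for *F11r*, which lay above, and for *Jam2*, *Ocln* and *Cgn*, which lay below, where 37.5% of all genes did so, 18.7% above and 18.8% below. The shares of members called and of members without overlap were thus near those of all genes.

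*F11r* in LPS-CPD-4645 mice lay between the other groups, with a log2 fold change of 0.45 ± 0.13 over sham-vehicle mice (95% interval 0.18 to 0.71; edgeR adjusted p = 0.0091). *Cldn5* differed from sham-vehicle mice by a log2 fold change of 0.08 (95% interval -0.31 to 0.48; edgeR adjusted p = 0.752). *Jam2* was lower by a log2 fold change of -0.53 ± 0.12 (95% interval -0.79 to -0.27; edgeR adjusted p = 0.00257), and every LPS-CPD-4645 mouse lay below every sham-vehicle mouse.

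*Lsr* measured 15.7, 16.2, 15.8 and 7.97 CPM in LPS-CPD-4645 mice, so 3 mice clustered between 15.7 and 16.2 CPM and mouse 4 lay within the sham-vehicle range. Its log2 fold change was 0.71 ± 0.26 (95% interval 0.16 to 1.25; edgeR adjusted p = 0.0378). The call was lost when any one of 5 mice was left out: sham-vehicle 2 or 4, or LPS-CPD-4645 1, 2 or 3 (adjusted p from 0.0650 to 0.111). It was also lost with limma-voom (adjusted p = 0.0695) and without the 2 shallowest libraries (edgeR adjusted p = 0.0622). *Ocln* measured 8.70, 6.82, 9.41 and 7.93 CPM, all below the lowest sham-vehicle mouse at 10.4 CPM, yet its log2 fold change of -0.55 ± 0.26 did not pass (edgeR adjusted p = 0.101). Without LPS-vehicle mouse 3, which enters only through the shared estimate of spread, the edgeR adjusted p of *Ocln* was 0.0128 at the same fold change, -0.55. *Ocln* also passed with limma-voom (adjusted p = 0.0467), with only the groups compared in the fit (edgeR adjusted p = 0.0120) and without the 2 shallowest libraries (edgeR adjusted p = 0.0198).

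Expression was next taken relative to the 16 endothelial markers, by using their summed count as the library scale. This moved the median log2 fold change of all genes to -0.39 in LPS-vehicle against sham-vehicle mice, to 0.35 in LPS-CPD-4645 against LPS-vehicle mice and to -0.03 in LPS-CPD-4645 against sham-vehicle mice. The marker sum was 314 to 495 CPM in sham-vehicle, 379 to 647 CPM in LPS-vehicle and 369 to 499 CPM in LPS-CPD-4645 mice. The markers themselves moved apart after LPS, from 1.88 for *Cd93* to -1.502 for *Ptprb* on the log2 scale, so the sum is not a neutral count of endothelial cells.

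Relative to this sum, *F11r* and *Ocln* passed in opposite directions after LPS, beside 20.8% of all genes in either direction. The *F11r* transcript amounted to 1.95 to 3.27% of the marker sum in sham-vehicle mice and 3.31 to 5.69% in LPS-vehicle mice, with a log2 fold change of 0.74 (edgeR adjusted p = 0.0194). *Ocln* amounted to 2.48 to 3.31% in sham-vehicle and 0.732 to 1.92% in LPS-vehicle mice, with a log2 fold change of -0.98 (edgeR adjusted p = 0.00476). The rise of *Cldn5* did not hold on this scale, where its share was 20.8 to 26.9% in sham-vehicle and 25.9 to 34.2% in LPS-vehicle mice and its log2 fold change was 0.25 (edgeR adjusted p = 0.355).

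For LPS-CPD-4645 against LPS-vehicle mice, 0 of the 9 genes passed relative to the endothelial markers, where 21.9% of all genes did in edgeR, and 1 had an unadjusted p under 0.05. The log2 fold change was -0.31 for *F11r* (adjusted p = 0.304), -0.16 for *Cldn5* and -0.02 for *Jam2* in this edgeR fit. After LPS, the log2 fold change of *Jam2* on this scale was -0.52 and did not pass (edgeR adjusted p = 0.057), with 7.04 to 10.5% of the marker sum in sham-vehicle and 5.45 to 5.88% in LPS-vehicle mice, without overlap. Against sham-vehicle mice, *Lsr* alone passed, at 0.73 (edgeR adjusted p = 0.035), where 15.6% of all genes passed. *Jam2* stood at -0.54 (edgeR adjusted p = 0.0795) and *F11r* at 0.43 (edgeR adjusted p = 0.235). *Lsr* amounted to 1.66 to 2.19% of the marker sum in sham-vehicle mice and 2.16 to 3.95% in LPS-CPD-4645 mice.

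**Figure D4:**
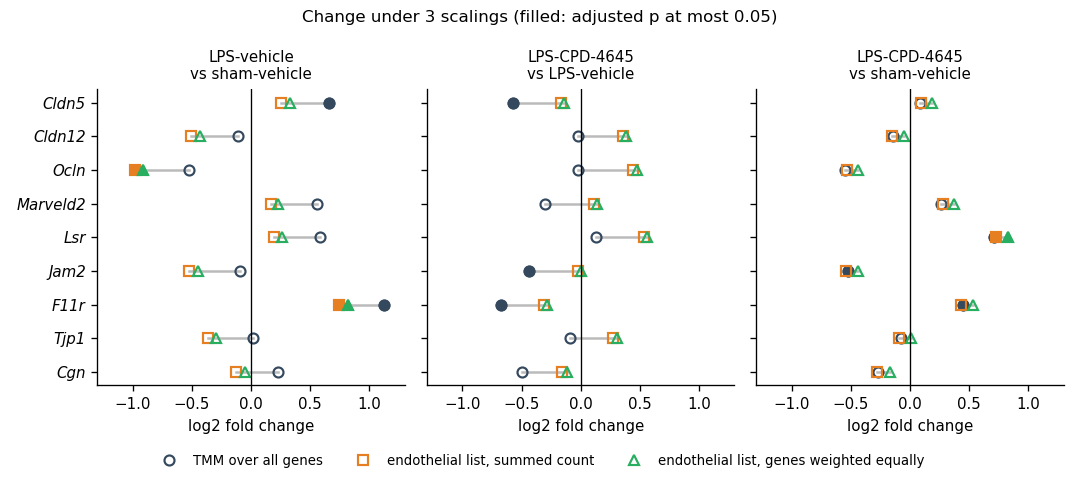
Log2 fold change of each tight junction gene under 3 scalings of the libraries, namely TMM over all genes, the summed count of the 16 endothelial markers, and the same markers with each gene weighted equally; filled symbols have an edgeR adjusted p of at most 0.05. After LPS, *F11r* is filled under all 3 scalings (1.12, 0.74 and 0.82), *Cldn5* under TMM only and *Ocln* under both endothelial scalings only.

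Neutrophil markers moved in the same directions as *F11r*. Of that list, 8 of the 9 tested genes rose after LPS (all genes 11.1%), all 9 fell with CPD-4645 (all genes 16.4%), and the summed level of the 10 listed genes was 3.65 to 11.2 CPM in sham-vehicle, 72.6 to 290 CPM in LPS-vehicle and 7.94 to 28.5 CPM in LPS-CPD-4645 mice. Of the monocyte and macrophage list, 6 of 7 tested genes rose after LPS and 3 fell with CPD-4645 (*Adgre1*, *Chil3* and *F13a1*), and its sum was 11.9 to 14.9, 34.0 to 48.4 and 16.1 to 28.6 CPM in the same order. *Cd4*, the only lymphocyte gene tested, had log2 fold changes of 0.12 and -0.12 that did not pass (edgeR adjusted p = 0.79 and 0.75). The platelet sum was 16.5 to 21.1, 17.7 to 25.5 and 17.9 to 23.7 CPM, with overlap between all groups, and the platelet markers *Pf4*, *Ppbp* and *Gp9* lay below 2 CPM in every mouse. Of the 4 platelet genes tested, the integrin gene *Itgb3* rose after LPS (log2 fold change 0.77, edgeR adjusted p = 0.0406) and fell with CPD-4645 (-1.09, 0.00467), in the same directions as *F11r*. *Itga2b*, its integrin partner, fell with CPD-4645 (-0.66, edgeR adjusted p = 0.0467), while *Gp1bb*, the most abundant gene of the list, rose (0.60, edgeR adjusted p = 0.0133). Within groups, the neutrophil sum and *F11r* did not keep one order. LPS-vehicle mouse 2 was highest in both (290 and 23.8 CPM), whereas LPS-CPD-4645 mouse 4 had the highest neutrophil sum of its group (28.5 CPM) and the lowest *F11r* (12.4 CPM). Brains had not been perfused, and the part of blood cells in the *F11r* values was not tested.

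Over the 13 mice, the profile most like *F11r* among 14836 genes was that of *Gm49342* (Pearson r = 0.97), followed by *Chil3* (0.97), a chitinase-like gene of myeloid cells. *Cldn5* was most like *Plxnb1* (0.93), a semaphorin receptor, and *Tmem106a* (0.92). *Ocln* was most like *Mrc2* (0.92) and *Tek* (0.92), the endothelial angiopoietin receptor, although its Spearman rank correlations with them were lower, at 0.76 and 0.77. *Lsr* was most like *Cpt1a* (0.94), which carries fatty acids into mitochondria. *Jam2* was most like *B230354K17Rik* (0.96) and *Cgn* most like *Kmt5a* (0.96). The points of these descriptive correlations share groups and libraries, and for *F11r* the values with group means removed were lower, at 0.81 for *Gm49342* and 0.77 for *Chil3*.

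Among the members, mice within a group also differed together. LPS-vehicle mouse 3 was lowest of its group for 5 of the 9 genes (*Cldn5*, *Ocln*, *Jam2*, *Marveld2* and *Lsr*) and highest for *Cgn*. Its endothelial marker sum, 379 CPM, was the lowest of its group as well. Sham-vehicle mouse 4 was lowest for *Cldn5*, *Ocln*, *Marveld2* and *Lsr* and highest for *Cgn*, again with the lowest endothelial sum of its group, 314 CPM. Sham-vehicle mouse 2 was lowest for 4 others (*Tjp1*, *Jam2*, *F11r* and *Cldn12*), with an endothelial sum of 445 CPM that was not the lowest. In LPS-CPD-4645 mice no mouse was lowest for more than 3 genes. With group means removed, *Cgn* correlated negatively with all 8 other members over the 13 mice, from -0.82 with *Jam2* and -0.76 with *Cldn5* to -0.16 with *Tjp1*. Over all 36 pairs of members the median was 0.29, and 26 pairs were above 0.

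The rest of the junction was described with 3 further lists. Of 53 other tight junction genes, 43 were tested, and 1 of them rose and none fell after LPS, where 11.1% and 8.86% of all genes did. Their log2 fold changes had a median of -0.0085. That gene was *Esam*, an adhesion molecule of endothelial cells and platelets that is also one of the 16 endothelial markers, with 22.3 to 38.3 CPM in sham-vehicle, 66.3 to 81.2 CPM in LPS-vehicle and 46.0 to 56.1 CPM in LPS-CPD-4645 mice. These groups did not overlap, in the same order as those of *F11r*. The log2 fold change of *Esam* was 1.16 ± 0.12 after LPS (edgeR adjusted p = 2.5e-06) and -0.46 ± 0.12 with CPD-4645 (edgeR adjusted p = 0.00802).

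With CPD-4645 relative to LPS-vehicle, 6 of these 43 genes rose and 8 fell, beside 14.1% and 16.4% of all genes. Relative to sham-vehicle, 7 rose and 9 fell, beside 19.5% and 19.3% of all genes. Both pairs of counts were near these shares, and the medians were -0.02 and -0.08. The claudin genes past 2-fold were all scarce. *Cldn20* held 15 to 32 counts in each LPS-CPD-4645 library and 0 to 13 in each LPS-vehicle library, for a log2 fold change of 2.36 ± 0.69 (edgeR adjusted p = 0.0156). *Cldn22* held 4 to 18 and 9 to 71 counts, for -1.19 ± 0.38 (edgeR adjusted p = 0.0233). Against sham-vehicle mice, *Cldn19* and *Marveld3* were lower in LPS-CPD-4645 mice, at 0 to 4 and 0 to 6 counts per library, for log2 fold changes of -2.57 ± 0.87 and -2.52 ± 0.93 (edgeR adjusted p = 0.0261 and 0.0396). Each of these 4 calls was lost without the 2 shallowest libraries (edgeR adjusted p = 0.104 for *Cldn20*, 0.0587 for *Cldn22*, 0.0617 for *Cldn19* and 0.0641 for *Marveld3*). The log2 fold change of *Cldn20* was then 1.58, and 1.75 without LPS-CPD-4645 mouse 1, while those of *Cldn22*, *Cldn19* and *Marveld3* were -1.07, -2.33 and -2.28 without the 2 libraries. Leaving out LPS-CPD-4645 mouse 1 alone also ended all 4 (edgeR adjusted p from 0.0608 for *Cldn22* to 0.0864 for *Marveld3*), and other single mice ended those of *Cldn22*, *Cldn19* and *Marveld3*. *Cldn11*, the claudin of myelin and the gene of highest level per kilobase in this list, ranged from 481 to 655 CPM in sham-vehicle and from 435 to 600 CPM in LPS-vehicle mice, with a log2 fold change of -0.08 (edgeR adjusted p = 0.694).

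Adherens junctions lie beside tight junctions and are built on cadherins and catenins. The list of 18 adherens genes also held endothelial genes that are neither cadherins nor catenins, such as *Plvap* and *Tek*. It shared *Pecam1*, *Cdh5*, *Tek* and *Ptprb* with the endothelial markers. Of the 18, 3 rose and 6 fell after LPS (all genes 11.1% and 8.86%). With CPD-4645, 1 rose and 3 fell relative to LPS-vehicle (all genes 14.1% and 16.4%), and 3 rose and 9 fell relative to sham-vehicle (all genes 19.5% and 19.3%). The median log2 fold changes were -0.18, -0.07 and -0.33. *Cdh5* (VE-cadherin) ranged from 21.2 to 32.1 CPM in sham-vehicle, 37.8 to 78.4 CPM in LPS-vehicle and 55.5 to 59.8 CPM in LPS-CPD-4645 mice. Both LPS groups lay above all sham-vehicle mice, with log2 fold changes of 1.14 ± 0.16 (edgeR adjusted p = 5.8e-05) and 1.12 ± 0.17 (5.3e-05). *Ptprb*, the endothelial phosphatase that acts on VE-cadherin and Tie2, fell by 1.502 on the log2 scale, and *Tek*, which encodes Tie2, fell by 1.49 (edgeR adjusted p = 0.00070 and 0.00191). *Plvap*, a marker of fenestrated and leaky endothelium, ranged from 14.97 to 16.5 CPM in LPS-vehicle and 26.2 to 41.5 CPM in LPS-CPD-4645 mice, without overlap, for 1.13 ± 0.21 (edgeR adjusted p = 0.00084). Against sham-vehicle mice, the nectin gene *Nectin3*, which encodes an adhesion molecule of adherens junctions, was lower in LPS-CPD-4645 mice by a log2 fold change of -1.05 ± 0.15 (edgeR adjusted p = 3.3e-05). Its range there was 10.1 to 15.1 CPM, below the sham-vehicle range of 21.4 to 27.4 CPM. *Nectin3* had already fallen after LPS alone (-0.72, edgeR adjusted p = 0.0012), and between the LPS groups it differed by -0.33 (edgeR adjusted p = 0.0966). Relative to sham-vehicle mice, LPS-CPD-4645 mice also had higher *Plvap*, at 1.21 on the log2 scale (edgeR adjusted p = 0.00046). *Tek* and *Ptprb* were lower relative to sham-vehicle mice, at -1.39 and -1.19 (edgeR adjusted p = 0.0029 and 0.0038). Between the LPS groups, *Tek* and *Ptprb* differed by 0.10 and 0.31 and did not pass (edgeR adjusted p = 0.834 and 0.422).

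Of 38 barrier regulators, 4 rose and 11 fell after LPS (all genes 11.1% and 8.86%). With CPD-4645, 2 rose and 4 fell relative to LPS-vehicle (all genes 14.1% and 16.4%), and 6 rose and 11 fell relative to sham-vehicle (all genes 19.5% and 19.3%). *Mfsd2a*, a lipid transporter of barrier endothelium that limits vesicle traffic, rose after LPS. Its sham-vehicle range was 24.3 to 41.8 CPM, its LPS-vehicle range 63.6 to 79.0 CPM and its LPS-CPD-4645 range 66.7 to 98.2 CPM, so both LPS groups lay above all sham-vehicle mice. Its log2 fold change after LPS was 1.02 ± 0.14 (edgeR adjusted p = 4.1e-05). *Sox17*, an arterial transcription factor, and *Notum*, a Wnt-inactivating enzyme, fell by 1.71 and by 1.68 on the log2 scale (edgeR adjusted p = 0.00066 and 0.00345). *Ctnnb1* (beta-catenin), the effector of Wnt signalling, fell by 0.23 on the log2 scale (edgeR adjusted p = 0.0203). That call was lost without sham-vehicle mouse 4 (0.0692), with no filter on low counts (0.0615), with equally weighted endothelial markers (0.0975) and in the test against 1.2-fold (0.901).

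In LPS-CPD-4645 relative to sham-vehicle mice, the Norrin receptor gene *Fzd4* was higher, at 23.9 to 33.4 CPM where sham-vehicle mice had 6.17 to 8.96 CPM. This was a log2 fold change of 1.81 ± 0.17 (edgeR adjusted p = 4.7e-07). The ligand genes *Ndp* (Norrin) and *Wnt7a* were lower, by log2 fold changes of -1.17 ± 0.18 and -1.01 ± 0.18 (edgeR adjusted p = 6.5e-05 and 0.00024). *Notum* was lower by -2.32 ± 0.42 (edgeR adjusted p = 0.00028), at 0.553 to 1.92 CPM against 3.51 to 7.60 CPM. The ranges of these 4 genes did not overlap between the groups. After LPS alone, *Fzd4* had already risen (0.84, edgeR adjusted p = 0.00125) and *Ndp* and *Wnt7a* had fallen (-0.54 and -0.56, edgeR adjusted p = 0.0267 and 0.0227). Between the LPS groups, *Fzd4* rose further with CPD-4645 (0.98, edgeR adjusted p = 0.00022) and *Ndp* fell further (-0.63, 0.0107), while *Wnt7a* at -0.45 did not pass (0.053). *Mfsd2a* was higher in LPS-CPD-4645 than in sham-vehicle mice, at 1.13 ± 0.15 (edgeR adjusted p = 1.1e-05). Between the LPS groups it differed by 0.12 and did not pass (edgeR adjusted p = 0.544). The median log2 fold change over the regulators was -0.20 after LPS and -0.03 with CPD-4645 relative to LPS-vehicle, beside -0.00065 and -0.02 for all genes.

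**Figure D5:**
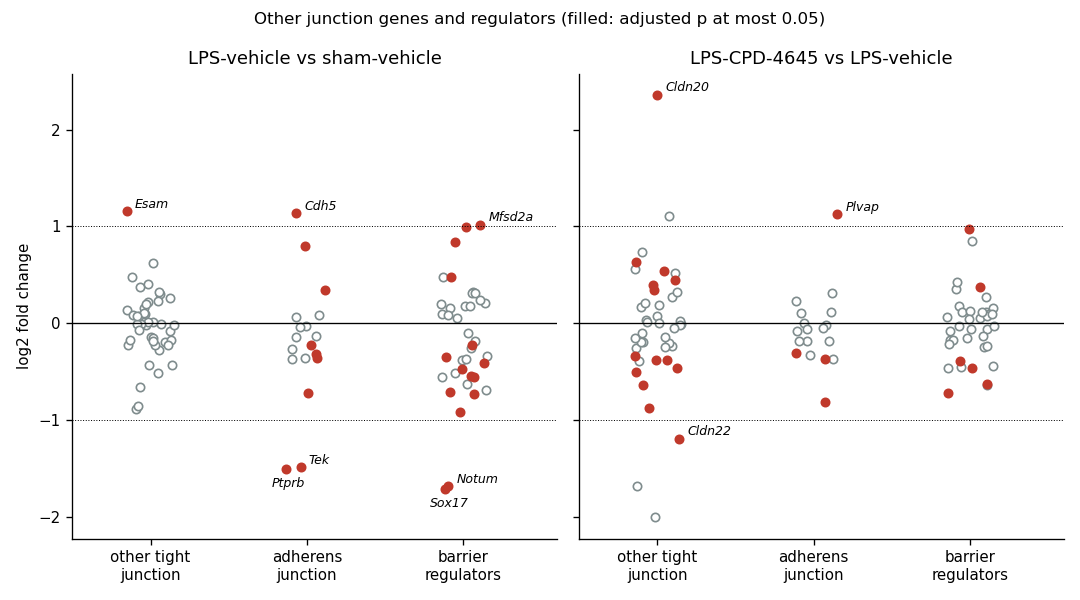
Log2 fold change of each tested gene of 3 further lists after LPS (left) and with CPD-4645 relative to LPS-vehicle (right); filled points have an edgeR adjusted p of at most 0.05, dotted lines mark a 2-fold change, and genes past both are named. After LPS, *Esam* (1.16) is the only filled point among the other tight junction genes, while adherens genes and barrier regulators hold filled points on both sides of 0.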

How the data were processed

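RNA-seq of isolated brain vasculature covered 13 mice. The authors aligned 75 base pair single-end reads of stranded poly-A libraries to mm10 with STAR 2.5.2a, after bcl2fastq 2.15.0.4, and deposited whole-number read counts per gene, taken by STAR from the basic set of GENCODE M9, with no normalization. Which strand column was counted is not given in the sources used here. The 9 genes and all lists were chosen with earlier results of these data known, and the lists were written from general knowledge.

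Identifiers were matched to GENCODE M21 (GRCm38), where 47224 of 47643 matched. Genes kept by filterByExpr (minimum count 10, minimum total 15) numbered 17285. They were fitted with edgeR 4.0.16 in R 4.3.3 as 3 groups without covariates, with TMM factors of 0.908 to 1.08 and all 13 mice in 1 quasi-likelihood fit. Benjamini-Hochberg adjustment ran over all 17285 genes. The limit for passing was an adjusted p of 0.05. CPM used TMM-scaled library sizes, and log2 CPM a prior count of 2. CPM per kilobase divided by merged M21 exon length. Standard errors and 95% intervals came from the quasi-likelihood fit. The script was tested on simulated counts.

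Genes named beyond the 9 were those past the threshold and 2-fold in each further list, at most 5 per list and comparison, the gene of highest level per kilobase of each list, and for each of the 9 the 2 genes of highest Pearson correlation among those with a mean of at least 1 CPM. Endothelial markers cited for the scaling were named by their values. Replicates came from separate mice by the labels, and no libraries were duplicates. Alternatives were limma-voom (limma 3.58.1), DESeq2 1.42.0, its size factors in edgeR, scaling to 16 endothelial markers, no filter, a mean count of at least 50, only the groups compared, a replicate block, a test against 1.2-fold (glmTreat), each mouse left out, and the 2 shallowest libraries left out. Python 3.11.15, pandas and matplotlib were used for summaries and plots. RefSeq windows were searched on both strands.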

Additional observations from a re-analysis of the deposited data

Results flagged for a closer look

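Of 27 groups of mice (9 genes in 3 groups), 2 held a mouse apart from the others by Dixon's test of the gap over the range, and chance flags about 1 in 20 groups. In LPS-CPD-4645 mice, *Lsr* was 7.97 CPM in mouse 4 against 15.7 to 16.2 CPM in the other mice, a gap of 0.944 of the range. In sham-vehicle mice, *Cgn* was 6.07 CPM in mouse 4 against 4.96 to 5.14 CPM in the others, a gap of 0.842 of the range.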

How the results depend on the processing

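Counts of the 9 genes called were within 1.5 times under limma-voom, DESeq2, its size factors, no filter, a mean count of at least 50, only the groups compared, the replicate block and without the 2 shallowest libraries. Testing against 1.2-fold with glmTreat left 1, 1 and 1 of 9 called for LPS-vehicle against sham-vehicle, LPS-CPD-4645 against LPS-vehicle and LPS-CPD-4645 against sham-vehicle, and 12, 9 and 27 of the 98 genes of the further lists, where 24, 24 and 45 passed without that limit. The calls it ended were *Cldn5* in the first 2 comparisons (adjusted p = 0.0642 and 0.0932), *Jam2* in the second (0.127), and *F11r* and *Lsr* in the third (0.0902 and 0.0945). Scaling to the summed endothelial markers left 0 and 1 of 9 in the latter pair of comparisons and 21 of 98 in the last. With those markers weighted equally, an alternative chosen after seeing the data, the counts were 0, 1 and 19. It moved the median of all genes to -0.31, 0.38 and 0.08 on the log2 scale. Leaving out 1 mouse gave 1 to 2, 2 to 4 and 2 to 4 of 9, with 1 for LPS-vehicle against sham-vehicle without sham-vehicle mouse 4, and 18 to 27, 18 to 27 and 34 to 48 of 98.

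Signs turned in genes that had not passed, apart from *Jam2*. Under the summed and the equally weighted endothelial markers, log2 fold changes after LPS were -0.37 and -0.30 for *Tjp1* and -0.13 and -0.056 for *Cgn*. With CPD-4645 relative to LPS-vehicle they were 0.44 and 0.48 for *Ocln*, 0.28 and 0.31 for *Tjp1*, 0.11 and 0.14 for *Marveld2* and 0.36 and 0.39 for *Cldn12*, and *Jam2* was at 0.0067 under equal weights. Against sham-vehicle, *Tjp1* was at 0.0090 under equal weights. Without the 2 shallowest libraries, *Cldn5* was at -0.014 against sham-vehicle and *Lsr* at -0.046 against LPS-vehicle, both in LPS-CPD-4645 mice. Leaving out 1 mouse gave -0.0043 to 0.20 for *Cldn5* and -0.12 to 0.016 for *Tjp1* in LPS-CPD-4645 against sham-vehicle, -0.20 to 0.093 for *Ocln* and -0.076 to 0.027 for *Cldn12* in LPS-CPD-4645 against LPS-vehicle, and -0.064 to 0.053 for *Tjp1* and -0.14 to 0.030 for *Cldn11* after LPS. Apart from the scalings, for which the shift of all genes is given, the cause was not tested.

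Replicate numbers did not pair the mice, since same-numbered mice of different groups had correlations of their deviations from -0.035 to 0.11. With the replicate block, 2, 4 and 3 of 9 genes were called, *Cgn* being added in LPS-CPD-4645 against LPS-vehicle, and log2 fold changes there were 0.082 for *Ocln* and 0.012 for *Cldn12*. Counting error limits *Marveld2*, with 19 to 173 counts per library, and *Cgn*, with 45 to 317.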
